A study of Mus musculus with 6 samples.

Results

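The genes described here are 35 that encode the enzymes and transporters of glycolysis, of lactate and pyruvate handling, and of the pentose phosphate pathway. They were chosen by name for their place in these pathways and not from their values, out of 52550 gene identifiers counted in each library. Of the 35 genes, 31 had enough reads to be among the 14913 genes tested, and Gapdh, Pgk1, Pgam1 and Pdk4 did not.

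Polyadenylated RNA was measured in the cortex of C57BL6/J mice at postnatal day 2. The control group carried Slc7a5fl/fl without the recombinase (Emx1Cre-, n = 3), and the knockout group carried Slc7a5fl/fl with it (Emx1Cre+, n = 3). Both groups thus share the floxed alleles. All knockouts carry Cre and no control does, so that an effect of Cre cannot be told apart from one of the deletion. Each library came from 1 cortical hemisphere, and the titles give the libraries of each genotype the letters A, B and C. Cre under Emx1 control acts in the progenitors of excitatory neurons and glia of the dorsal forebrain, and microglia, vessels and most interneurons of the same tissue keep the gene. The product of Slc7a5 is the transporting subunit of LAT1, a carrier of large neutral amino acids such as leucine. Slc7a5 itself was at 20.2, 40.7 and 26.1 CPM (read counts scaled to library size with TMM) in controls A, B and C against 15.6, 9.37 and 11.4 CPM in the knockouts. All knockouts lay below all controls, with a log2 change of -1.25 ± 0.28 (SE) that passed with DESeq2 (adjusted p = 6.95e-04) but not in edgeR's quasi-likelihood test (adjusted p = 0.4). With the letter as a block, a pairing of libraries taken from correlations given further on and stated by no label, Slc7a5 passed in neither DESeq2 (adjusted p = 0.651) nor edgeR (adjusted p = 0.421). The comparison asks whether the RNA of the glucose pathways differs in a cortex without this carrier in that lineage.

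Glycolysis splits glucose into pyruvate in the cytosol and yields ATP and NADH. Pyruvate then enters the mitochondria or is reduced to lactate, which monocarboxylate transporters carry between glia and neurons. The pentose phosphate pathway branches off at glucose 6-phosphate and makes NADPH for reductive synthesis and antioxidant defence, and ribose for nucleotides. Many glycolytic genes are known targets of the hypoxia factor HIF1, whereas ATF4, the factor induced when amino acids run short, is known for targets in amino acid synthesis and transport.

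Promoter windows of 300 bases, 250 before and 50 after an annotated RNA start, were taken from RefSeq on GRCm38.p6 for 33 of the 35 genes (49 windows). Slc2a3 and Slc16a7 had no window in that table. Both strands were searched for ACGTG, the core of the hypoxia response element, for the E-box CACGTG, which holds that core, and for the ATF4-type site TGATGNAA. The core ACGTG was in 40.8% of the members' windows and in 19.6% of all 32851 windows. The E-box was in 12.2% of the members' windows and in 7.15% of all windows. No member window held TGATGNAA, against 3.97% of all windows and 27.8% (5) of the 18 windows found for 16 of 19 amino acid response genes. At a share of 3.97%, 49 windows would hold few matches, so their absence says little. The core ACGTG was also in 33.3% (6) of the 18 windows of the amino acid response genes, and the E-box in 5.56% (1). The core is thus not particular to the members beside that list. Some genes have several windows that overlap, so the windows are not separate counts. A match is a run of letters, and its use by a factor was not tested. The 4 stretches that follow are the 250 bases before a start, written 5′ to 3′ on the strand of the gene, with ACGTG on either strand in capitals (CACGT where it reads on the other strand, CACGTG where both overlap). Gpi1 and Tpi1 are shown because they had the smallest p-values among the members in edgeR without the letter as a block. Ldha and Slc16a3 are shown as lactate genes with a window that holds the core. Where a gene had several windows, the one with the most matches to the core is shown. Gpi1 is at chr7:34230337-34230586 (minus strand), Tpi1 at chr6:124814159-124814408 (minus), Ldha at chr7:46845554-46845803 (plus) and Slc16a3 at chr11:120948817-120949066 (plus).
Gpi1: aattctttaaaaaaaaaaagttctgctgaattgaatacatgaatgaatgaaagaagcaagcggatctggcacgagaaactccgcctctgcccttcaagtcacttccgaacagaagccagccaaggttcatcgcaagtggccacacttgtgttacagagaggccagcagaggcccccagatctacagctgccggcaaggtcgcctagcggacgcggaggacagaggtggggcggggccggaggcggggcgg
Tpi1: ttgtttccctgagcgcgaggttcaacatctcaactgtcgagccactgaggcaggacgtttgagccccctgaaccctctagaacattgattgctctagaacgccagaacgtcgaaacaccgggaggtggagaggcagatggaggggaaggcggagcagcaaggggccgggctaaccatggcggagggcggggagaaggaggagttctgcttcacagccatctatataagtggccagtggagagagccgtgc
Ldha: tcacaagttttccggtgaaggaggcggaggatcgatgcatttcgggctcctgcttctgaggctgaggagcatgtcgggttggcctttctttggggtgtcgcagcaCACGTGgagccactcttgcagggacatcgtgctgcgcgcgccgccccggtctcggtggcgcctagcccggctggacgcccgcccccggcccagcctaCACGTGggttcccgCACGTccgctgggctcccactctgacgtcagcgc
Slc16a3: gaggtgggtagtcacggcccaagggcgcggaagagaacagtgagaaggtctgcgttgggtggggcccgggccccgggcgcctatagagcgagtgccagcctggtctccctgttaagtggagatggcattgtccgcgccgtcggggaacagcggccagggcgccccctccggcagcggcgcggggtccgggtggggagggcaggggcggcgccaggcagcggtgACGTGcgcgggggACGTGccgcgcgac
The Ldha stretch held 5 matches counted over both strands, 4 of them from 2 E-boxes, and the Slc16a3 stretch held 2. The other Ldha window, at chr7:46846832-46847131, held 0. The Gpi1 and Tpi1 stretches held none.

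No member passed the test in this comparison. In edgeR's quasi-likelihood test the smallest Benjamini-Hochberg adjusted p over the 31 tested members was 0.666, where 0.0335% of all tested genes passed (5 of 14913). In the tissue as a whole, fewer cells of a type and less RNA per cell cannot be told apart, and this holds for every value that follows. The fitted log2 change, knockout over control, ran from -0.32 for Slc16a3 to 0.29 for Eno1 and had a median of -0.10 over the members, against 0.00 over all tested genes. Negative values were found for 23 members and positive ones for 8, against 7423 and 7490 of the 14913 tested genes. The 95% interval of the change lay within 1.5-fold in either direction for 25 of the 31 members and within 2-fold for all 31. Over all tested genes this held for 9226 and 12748 of 14913. At an unadjusted p under 0.05, edgeR listed 2 members with lower values (Tpi1 and Gpi1), 6.45% of the members where the background share is 3.81%, and 0 with higher values, where it is 3.19%. The knockout values of 6 members all lay below all control values (19.4%, background 6.28%), and those of 0 members all lay above (background 5.89%). These 6 were Slc2a3, Gpi1, Tpi1, Slc16a3, Tigar and Taldo1.

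**Figure D1:**
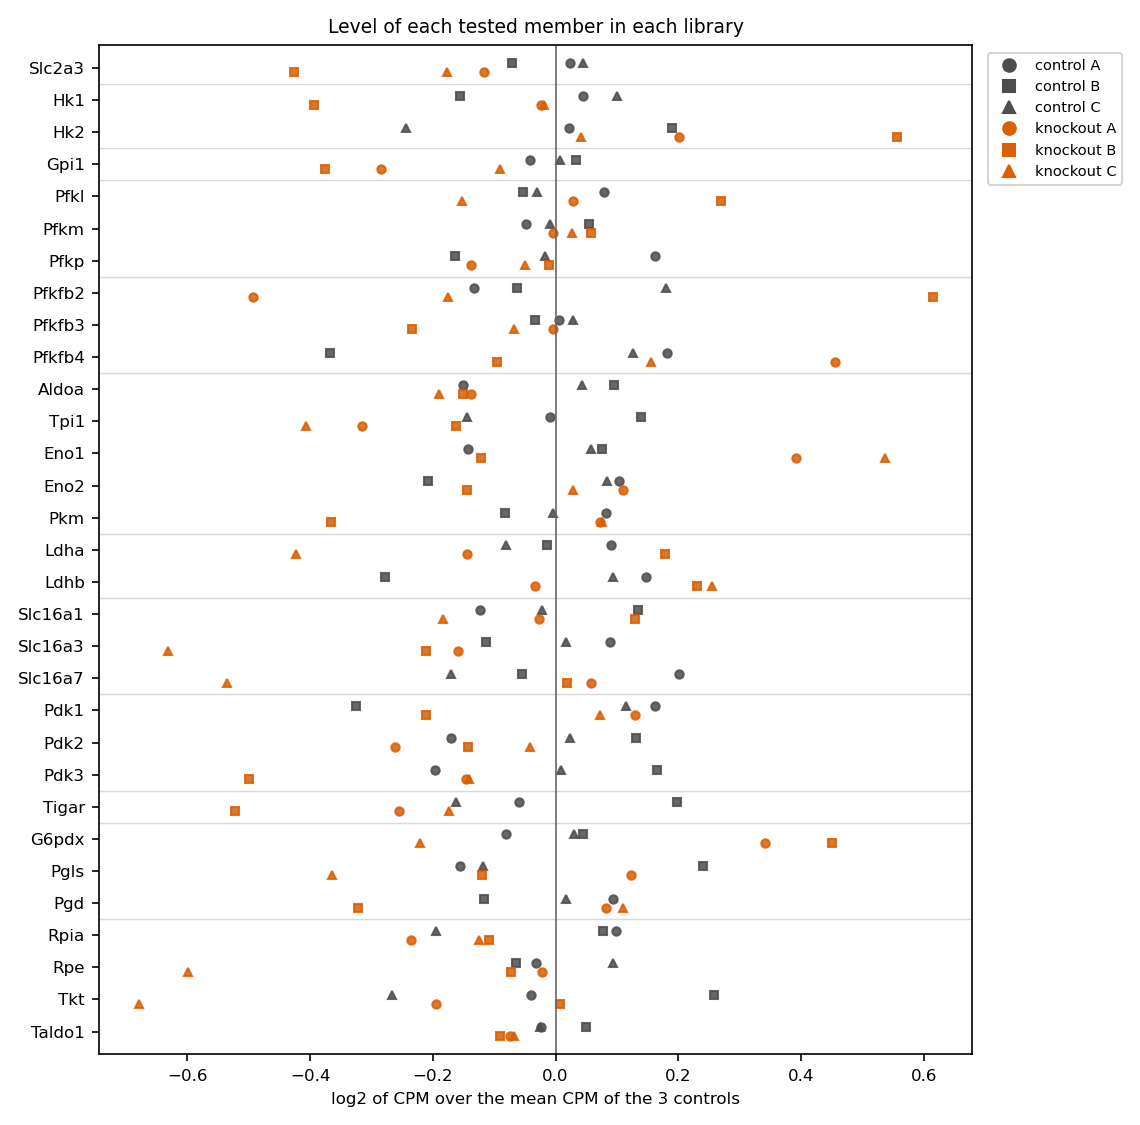
The level of each of the 31 tested members in each library is plotted as log2 of its CPM over the mean of the 3 controls, with controls in grey, knockouts in orange and a marker shape for each letter, ordered by role with thin lines between roles. The orange points of Slc2a3, Gpi1, Tpi1, Slc16a3, Tigar and Taldo1 lie left of all grey points in their row, and no row has all orange points on the right.

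The letters were taken to pair a control with a knockout library, and with the letter as a block in edgeR 0.845% of all genes passed (126 genes) and still 0 members, with a smallest adjusted p of 0.169 (Tkt). At an unadjusted p under 0.05 the block fit of edgeR listed 5 members with lower values, Slc2a3, Gpi1, Tpi1, Tigar and Tkt, 16.1% of the members where the background is 6.46%. DESeq2 called 0 members and 0.139% of all genes without the block, and 0 members and 0.17% of all genes with it. Within the letters, 10 members had a lower value in the knockout of all 3 (32.3%, background 16.8%) and 3 members, Hk2, Pfkm and Pfkfb4, had a higher one in all 3 (9.68%, background 16.2%). The median member difference was -0.05, -0.14 and -0.10 on the log2 scale in letters A, B and C, against 0.003, 0.005 and -0.011 over all tested genes. This median was small and of the same sign in each letter, but not in each part of the list. For the lactate and pyruvate members it was -0.117, 0.035 and -0.155. For the glycolysis members and the pentose phosphate members it was negative in each letter, at -0.01 in letter A for both. No single member passed after adjustment.

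**Figure D2:**
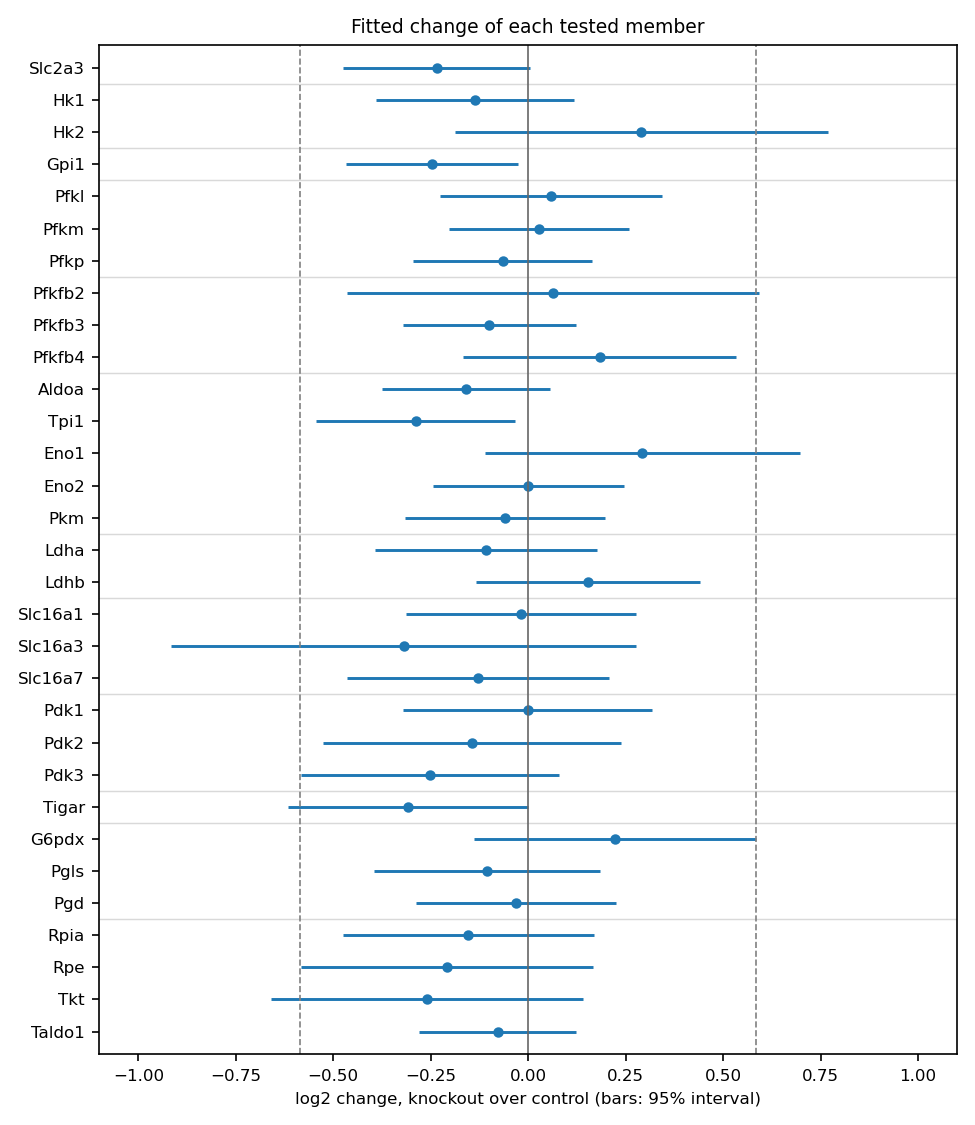
Points give the fitted log2 change of each tested member (knockout over control, n = 3 each) with its 95% interval from edgeR, and dashed lines mark a 1.5-fold change in either direction. Most points lie slightly left of 0, and the intervals of Gpi1 and Tpi1 stay below 0 before adjustment over all genes.

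Glucose enters neurons through GLUT3, the product of Slc2a3 (ENSMUSG00000003153, GRCm38 chromosome 6 from 122727809 to 122801640, minus strand). Its level was 66.1, 61.9 and 67.1 CPM in controls A, B and C against 60.0, 48.4 and 57.6 CPM in knockouts A, B and C. All knockouts lay below all controls, the highest of them close to the lowest control. The change was -0.23 ± 0.11 (log2, SE) with an unadjusted p of 0.0536 and an adjusted p of 0.718 in edgeR, and of 0.315 to 1 over the alternatives.

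Hexokinases trap glucose in the cell as glucose 6-phosphate. Hk1, the main form of brain, was at 264, 230 and 274 CPM in controls A to C against 252, 195 and 253 CPM in the knockouts. The groups overlapped, both libraries of letter B were the lowest of their genotype, and the change was -0.14 ± 0.12 (log2, SE; edgeR adjusted p = 0.866). Hk2, a form known for its induction in growing cells, was at 0.930 CPM per kilobase of exon in controls against 30.0 for Hk1. Its change was 0.29 ± 0.23, with overlapping groups. Per kilobase of exon, Hk2 made up 3.04% ± 0.71 of the pair in controls and 4.09% ± 1.36 in knockouts (SD, n = 3). The share was 2.96%, 3.79% and 2.38% in controls A to C against 3.5%, 5.65% and 3.13% in the knockouts, higher in the knockout of each letter. The difference of 1.05 percentage points did not pass an exact two-sided permutation test, which takes no account of the letters (p = 0.4; the smallest p that 3 against 3 allows is 0.1). It was 0.268 points without knockout B.

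Glucose 6-phosphate is turned into fructose 6-phosphate by the isomerase Gpi1 (ENSMUSG00000036427, chromosome 7 from 34201330 to 34230336, minus strand). Its level was 92.7, 97.6 and 95.8 CPM in controls A, B and C against 78.3, 73.6 and 89.6 CPM in the knockouts. The 3 controls lay close together and all knockouts below them, with knockout C nearest. Controls averaged 95.4 ± 2.49 CPM and knockouts 80.5 ± 8.22 CPM (SD, n = 3), which gave a change of -0.25 ± 0.10 (log2, SE), with an unadjusted p of 0.0314 and an adjusted p of 0.677 in edgeR, and of 0.262 to 1 over the alternatives. Of the 50-base windows of its coding transcripts, 19.0% also occurred in transcripts of other genes, so that its reads may be counted in part.

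Phosphofructokinase commits sugar to glycolysis and comes in 3 isozymes. Per kilobase, Pfkp (14.1 ± 1.60 CPM) and Pfkm (12.3 ± 0.441 CPM) overlapped in mean ± SD in controls (n = 3) and Pfkl was lower (4.07 ± 0.202 CPM). Pfkp was at 212, 169 and 187 CPM in controls A to C against 172, 188 and 183 CPM in the knockouts. All knockout values lay between those of the controls. The changes of Pfkl, Pfkm and Pfkp were 0.06 ± 0.13, 0.03 ± 0.11 and -0.07 ± 0.11 (log2, SE). The 3 isozymes held 13.3%, 40.4% and 46.2% of their summed level in controls and 14.0%, 41.4% and 44.6% in knockouts. The differences did not pass the same test (exact permutation p from 0.6 to 0.8), and that of Pfkp was -0.0465 points without control A. The levels per kilobase and the shares depend on the length used. Merged exons held 13401, 3340 and 6675 bases for Pfkp, Pfkm and Pfkl, against 4536, 3308 and 3759 distinct 50-base windows in their coding transcripts. The closeness of Pfkp and Pfkm thus holds for merged exons and not for the length of coding transcripts.

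The PFKFB enzymes set the level of fructose 2,6-bisphosphate, the strongest known activator of phosphofructokinase. Pfkfb3, the highest of them per kilobase, was at 71.5, 69.6 and 72.6 CPM in controls A to C against 71.0, 60.6 and 68.0 CPM in the knockouts. Knockout A lay among the controls and the change was -0.10 ± 0.10 (log2, SE). Pfkfb4 had a higher value in the knockout of each letter, by 0.27, 0.27 and 0.03 on the log2 scale for A, B and C, and a fitted change of 0.18 ± 0.16. Pfkfb2 ranged from 7.92 CPM in knockout A to 17.1 CPM in knockout B, both outside the controls (10.2 to 12.6 CPM), and its fitted change was 0.06 ± 0.25. Its knockouts thus spread on both sides of the controls.

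Tigar hydrolyses fructose 2,6-bisphosphate and favours the pentose phosphate branch (ENSMUSG00000038028, chromosome 6 from 127085116 to 127109557, minus strand). Its level was 24.2, 28.9 and 22.5 CPM in controls A, B and C against 21.1, 17.5 and 22.3 CPM in the knockouts. All knockouts lay below all controls, by the narrowest of margins for letter C (22.3 against 22.5 CPM) and most widely for letter B. The change was -0.31 ± 0.15 (log2, SE), with an unadjusted p of 0.0501 and an adjusted p of 0.712 in edgeR, and of 0.355 to 1 over the alternatives.

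The lower glycolytic steps run from aldolase to pyruvate kinase, and 5 of their 8 genes were tested. Triose phosphate isomerase, Tpi1 (ENSMUSG00000023456, chromosome 6 from 124810586 to 124814296, minus strand), was at 47.1, 52.2 and 42.9 CPM in controls A, B and C against 38.1, 42.4 and 35.7 CPM in the knockouts. The knockouts followed the order of their letters in the controls, and the differences within letters were alike at -0.31, -0.30 and -0.26 (log2). All knockouts lay below all controls, with knockout B close under control C. The mean was 47.4 ± 4.68 CPM over controls and 38.7 ± 3.37 CPM over knockouts (SD, n = 3), for a change of -0.29 ± 0.12 (log2, SE), with an unadjusted p of 0.0284 and an adjusted p of 0.666 in edgeR, and of 0.216 to 1 over the alternatives.

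Aldolase A, Aldoa, which cuts fructose 1,6-bisphosphate, had the highest counted level per kilobase among the lower steps (46.2 ± 4.07 CPM in controls). It was at 121, 144 and 139 CPM in controls A to C against 122, 121 and 118 CPM in the knockouts. Control A lay among the knockouts, and the change was -0.16 ± 0.10 (log2, SE; edgeR adjusted p = 0.809). The pyruvate kinase gene Pkm and the neuronal enolase Eno2 had changes of -0.06 ± 0.12 and -0.00 ± 0.12, with overlapping groups. Eno1, the enolase of glia and progenitors, was at 8.96 to 10.4 CPM in controls and at 13.0, 9.09 and 14.3 CPM in knockouts A, B and C, a change of 0.29 ± 0.19. Knockouts A and C lay above the controls and knockout B did not. Eno2 held 88.3% ± 1.92 of the level of the enolase pair in controls and 86.3% ± 1.98 in knockouts (SD, n = 3; exact permutation p = 0.3).

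Gapdh and Pgk1, which carry out the first energy-yielding steps, and Pgam1, the mutase after them, were almost without reads, although they rank among the abundant RNAs of most cells. Gapdh had 7, 1 and 1 reads in controls A, B and C against 8, 4 and 7 reads in the knockouts. Pgk1 had 22 reads and Pgam1 9 reads over the 6 libraries. Of the 50-base windows in the coding transcripts of these genes, 58.4% of those of Gapdh, 68.0% of those of Pgk1 and 41.5% of those of Pgam1 also occurred in transcripts of other genes. Most of the other genes were pseudogenes, namely 213 of 222 for Gapdh, 5 of 5 for Pgk1 and 4 of 4 for Pgam1. Eno1 shared 49.5% of its windows, and its level of 1.84 CPM per kilobase lay far under that of Aldoa. The tables list 0 multi-mapping reads, and STAR's gene counting takes only reads with a single place in the genome, so the levels of these 4 genes may be undercounted and are not ranked against those of other genes, and the enolase share above holds for the counted reads only. The part of the shared windows in the low counts was not tested.

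**Figure D3:**
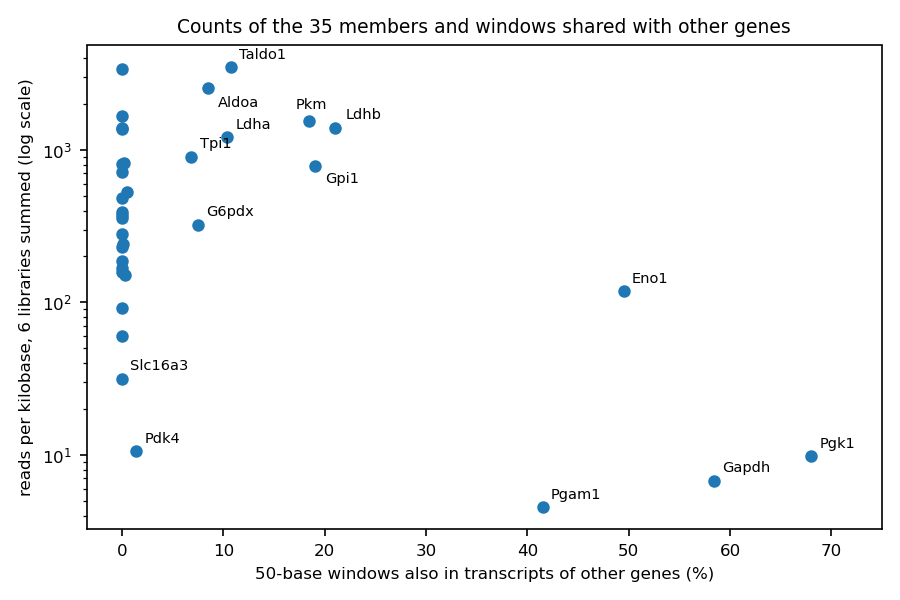
Each point is 1 of the 35 members, with the percentage of its 50-base transcript windows that also occur in transcripts of other genes on the horizontal axis and its reads per kilobase over the 6 libraries on a log axis. Gapdh, Pgk1, Pgam1 and Eno1 lie at the right with 41.5% to 68.0% of windows shared, and the first 3 of them have the lowest counts with Pdk4.

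Lactate dehydrogenase turns pyruvate into lactate and back, with Ldha known as the pyruvate-reducing form and Ldhb as the lactate-oxidising form. Ldhb was at 39.4, 29.3 and 37.9 CPM in controls A, B and C against 34.7, 41.6 and 42.4 CPM in the knockouts, and its change was 0.15 ± 0.14 (log2, SE; edgeR adjusted p = 0.866). Control B was the lowest of the 6 and knockouts B and C the highest. Ldha was at 67.8 to 76.4 CPM in controls and at 64.9, 81.2 and 53.5 CPM in knockouts A, B and C, a change of -0.11 ± 0.13. Knockout B lay above all controls, and knockouts A and C lay below them. Ldhb made up 50.9% ± 3.94 of the pair per kilobase in controls and 55.8% ± 5.85 in knockouts (SD, n = 3). This share was 52.1%, 46.5% and 54.1% in controls A to C against 53.0%, 51.9% and 62.6% in the knockouts. The share was higher in the knockout of each letter, and the difference of 4.94 points did not pass the same test (exact permutation p = 0.5). It was 1.58 points without knockout C.

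**Figure D4:**
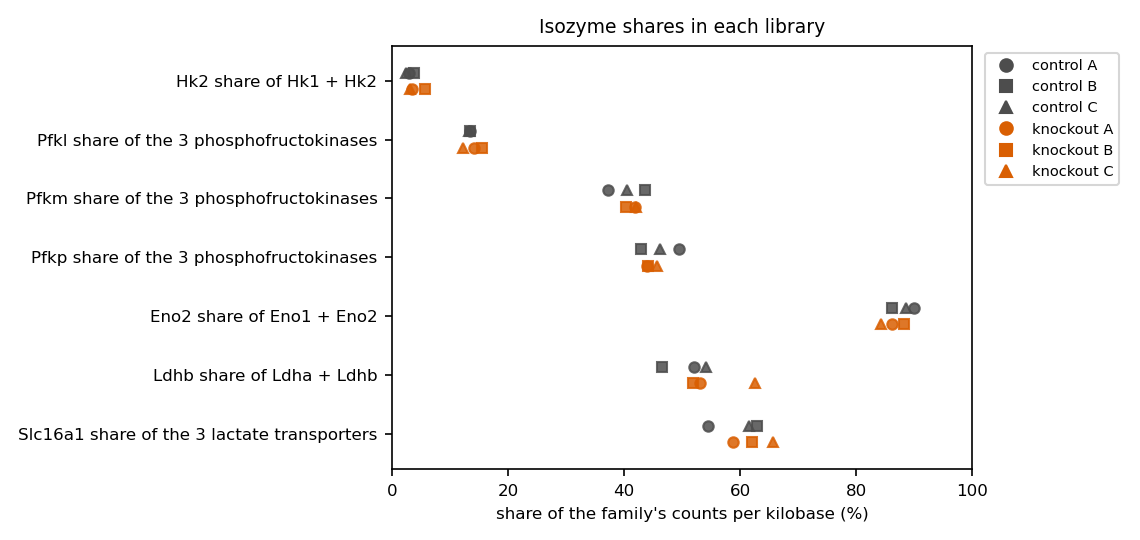
Each isozyme's percentage of its family's counts per kilobase of exon is plotted for the 6 libraries, with controls in grey above knockouts in orange and a marker for each letter. The colours overlap in all 7 rows, and knockout C has the highest Ldhb share at 62.6%.

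Lactate leaves and enters cells through the monocarboxylate transporters MCT1, MCT4 and MCT2, encoded by Slc16a1, Slc16a3 and Slc16a7. Slc16a1, found in glia and vessels, was at 19.9, 23.8 and 21.4 CPM in controls A to C against 21.3, 23.7 and 19.1 CPM in the knockouts. The ranges of both groups nearly coincided, with a change of -0.02 ± 0.14 (log2, SE). Slc16a3, an exporter of glycolytic cells, was at 3.42, 2.98 and 3.26 CPM in the controls against 2.88, 2.78 and 2.08 CPM in the knockouts. All of its knockouts lay below all controls, but these are 168 reads over 6 libraries, and the change of -0.32 ± 0.28 had an interval from -0.92 to 0.28 (edgeR adjusted p = 0.866). Slc16a7, the neuronal carrier, had a change of -0.13 ± 0.16, with knockout C the lowest of the 6 at 22.2 CPM. Slc16a1 held 59.6% ± 4.53 of the level of the 3 transporters in controls and 62.1% ± 3.39 in knockouts (SD, n = 3; exact permutation p = 0.5). Over the 7 isozyme shares the Benjamini-Hochberg adjusted permutation p was 0.8 for each.

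Pyruvate dehydrogenase kinases hold back the entry of pyruvate into the citrate cycle. Pdk3 was the highest of them per kilobase (7.47 CPM in controls), at 16.7, 21.5 and 19.3 CPM in controls A, B and C against 17.3, 13.5 and 17.4 CPM in the knockouts. Control A lay below knockouts A and C, letter B differed the most, and the change was -0.25 ± 0.16 (log2, SE; edgeR adjusted p = 0.796). Pdk1 and Pdk2 had changes of -0.00 ± 0.15 and -0.14 ± 0.18. Pdk4, the kinase of fasting, had 37 reads in all and was not tested.

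The oxidative branch of the pentose phosphate pathway yields NADPH in steps run by G6pdx, Pgls and Pgd. Pgls was at 207, 273 and 213 CPM in controls A to C against 252, 212 and 179 CPM in the knockouts, and its change was -0.11 ± 0.14 (log2, SE; edgeR adjusted p = 0.922). The groups overlapped, with control B the highest and knockout C the lowest. G6pdx, the entry enzyme, was at 14.9 to 16.3 CPM in controls and at 20.0, 21.5 and 13.5 CPM in knockouts A, B and C. Knockouts A and B lay above the controls and knockout C below, and the change was 0.22 ± 0.17. Pgd had a change of -0.03 ± 0.12.

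The non-oxidative branch, which links ribose 5-phosphate back to glycolysis, had negative values in all 4 of its genes, with a median change of -0.18 (log2). Transaldolase, Taldo1 (ENSMUSG00000025503, chromosome 7 from 141392199 to 141402968, plus strand), was at 131.5, 138.3 and 131.4 CPM in controls A, B and C against 127.0, 125.5 and 127.5 CPM in the knockouts. Its groups did not overlap, yet the change was -0.08 ± 0.10 (log2, SE; edgeR adjusted p = 0.919), among the smaller ones. Transketolase, Tkt, was at 188, 231 and 161 CPM in the controls against 169, 194 and 121 CPM in the knockouts. The knockouts kept the order of the letters seen in the controls, so the groups overlapped while each knockout was lower than its control, by 0.16, 0.25 and 0.41 on the log2 scale. The change was -0.26 ± 0.18 with an unadjusted p of 0.179 in edgeR, and with the letter as a block the unadjusted p was 0.00585 and the adjusted p 0.169 (range over the alternatives 0.169 to 1). Rpia and Rpe had changes of -0.15 ± 0.15 and -0.21 ± 0.18.

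Gapdh, Pgk1, Pgam1 and Eno1 are left out of the order that follows. Per kilobase of exon, the highest control levels among the other members were those of Taldo1 (61.6 ± 1.82 CPM) and Pgls (61.3 ± 9.64 CPM, SD, n = 3), which did not differ beyond their spread. Aldoa followed at 46.2 ± 4.07 CPM. Hk1 (30.0 ± 2.74), Pkm (27.1 ± 1.55), Tkt (26.3 ± 4.83), Pgd (24.1 ± 1.76), Ldhb (22.6 ± 3.47) and Ldha (21.7 ± 1.31) formed a run in which neighbours overlapped in mean ± SD. Genes of the pentose phosphate branch took 4 of the first 7 places among the genes ranked, the last of them, Pgd, overlapping with Ldhb. With glycolytic genes left out of the ranking, no order between the pathways can be read from this. Windows were also shared by Taldo1 (10.7%), Ldha (10.4%), Ldhb (21%), Pkm (18.4%), Aldoa (8.46%) and Tpi1 (6.83%), so this order is that of the counted reads. The order also depends on the length used. Merged exons held 3770, 6447 and 7355 bases for Pgls, Pgd and Tkt, against 1278, 2169 and 3222 distinct windows in their coding transcripts. For Taldo1 and Aldoa these were 2171 and 2911 bases against 1363 and 2399 windows. The order and the closeness of Taldo1 and Pgls thus hold for merged exons and not for the length of coding transcripts.

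Other genes of glucose metabolism were read from lists written alongside the members. Of 46 further genes of glucose transport and glycolysis, 28 were tested, with 13 higher and 15 lower values, a median of -0.03 and 0 passing in edgeR. The mitochondrial enzyme Pck2, known as an ATF4 target, was at 7.35, 5.21 and 7.13 CPM in controls A to C against 12.8, 10.9 and 8.52 CPM in the knockouts. All knockouts of Pck2 lay above all controls, with a change of 0.70 ± 0.21 (log2, SE; edgeR adjusted p = 0.462). Gpd1l, of the glycerol 3-phosphate branch, was at 135, 168 and 136 CPM in the controls against 119, 119 and 106 CPM in the knockouts, all below the controls, with a change of -0.36 ± 0.11 (edgeR adjusted p = 0.477). Of 14 further pentose phosphate and NADPH genes, 8 were tested, 4 higher and 4 lower, with a median of 0.02; the smallest p-values were those of the aldolase Dera (-0.42 ± 0.23) and the NAD kinase Nadk (0.11 ± 0.11).

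Glycogen genes had a median of -0.04 over 16 tested of 18, with 6 higher and 10 lower values, and the primer protein Gyg (-0.34 ± 0.16) and the muscle phosphorylase Pygm (-0.48 ± 0.38) had the smallest p-values. The 11 genes of pyruvate entry into the mitochondria had 5 higher and 6 lower values and a median of -0.01. Pyruvate carboxylase, Pcx, and the phosphatase Pdp1, which undoes the action of the Pdk kinases, had the smallest p-values there, with changes of -0.24 ± 0.14 and -0.17 ± 0.10 and all knockouts below all controls. No gene of either list passed in edgeR.

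Known HIF1 targets outside glycolysis and the HIF pathway itself showed no common direction, with 11 higher and 10 lower values of 21 tested, a median of 0.02 and 0 passing in edgeR. Vegfa, the vessel growth factor, was at 39.7, 33.7 and 38.4 CPM in controls A, B and C against 48.8, 48.4 and 49.7 CPM in the knockouts. All knockouts lay above all controls by a clear gap, with a change of 0.39 ± 0.11 (log2, SE; edgeR adjusted p = 0.44). The repressor Bhlhe40 had all knockouts below all controls and a change of -0.52 ± 0.17 (edgeR adjusted p = 0.513). Of the sugar-sensing transcription factors and their targets, 4 of 5 were tested with 0 passing, and Mlx, the partner of ChREBP, had the largest change at -0.33 ± 0.13 with all knockouts below all controls, followed by the target Arrdc4 at -0.06 ± 0.15. Over these 6 lists DESeq2 and the block fit also called 0 genes. At an unadjusted p under 0.05 in edgeR, 1 of the 28 further glycolysis genes was higher and 3 were lower, 1 of the 21 hypoxia genes was higher and 2 were lower, 1 sugar-sensing gene was lower, and the other 3 lists had 0.

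Amino acid response genes, the known ATF4 targets, stood in the same libraries with 19 of 19 higher values and a median of 0.71. Of these, 2 passed in edgeR (Slc7a3 and Eif4ebp1), where 0.0335% of all tested genes passed. With the letter as a block 11 passed (also Sesn2, Chac1, Mthfd2, Atf5, Cars, Shmt2, Asns, Psat1 and Pycr1), where 0.845% of all tested genes did. Several genes of the list were already known to be high in these libraries when it was written. Their direction, their calls and the size of their median are therefore not independent evidence. Slc7a3, a carrier of cationic amino acids, rose from 11.5 ± 2.96 to 41.1 ± 6.86 CPM (SD, n = 3; edgeR adjusted p = 5.65e-04), a change of 1.83 ± 0.18 (log2, SE). The largest member change in either direction, -0.32 for Slc16a3, was smaller in size than this list's median, which the choice of its genes bears on.

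**Figure D5:**
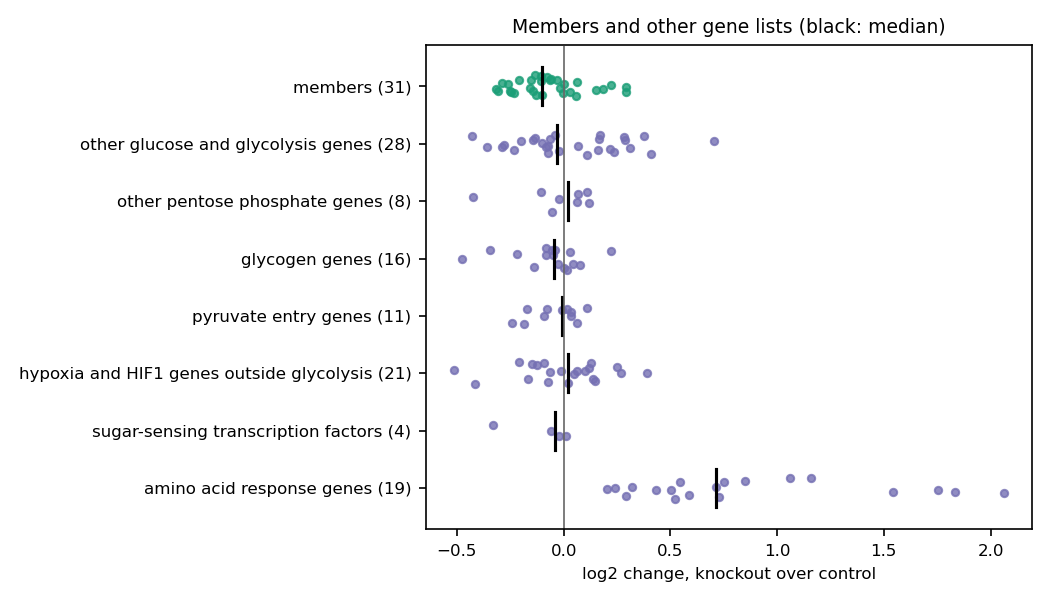
Points give the fitted log2 change, knockout over control, of each tested gene in the members (green, 31 genes) and in 7 other lists (purple), and black bars give the medians. The members centre at -0.10 with all points between -0.32 and 0.29. All 19 amino acid response genes, several of them known to be high when listed, lie right of 0 with a median of 0.71.

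The libraries held 8249436 to 10372582 gene counts each. Summed over 10 dorsal cortex markers the level was 3198 to 3518 CPM over all libraries, and 8 hindbrain markers summed to at most 0.201 CPM, with 5 of them at 0. Neuronal markers had lower values in 8 of 10 genes (median -0.14), with sums of 10810 to 11796 CPM in controls and 9539 to 11197 CPM in knockouts. Oligodendrocyte lineage markers had lower values in 8 of 9 tested genes, with 295 to 348 CPM in controls and 261 to 287 CPM in knockouts. Higher values were found for 9 of 12 radial glia and progenitor markers (1036 to 1111 against 1026 to 1256 CPM), 10 of 12 interneuron markers (1693 to 1807 against 1761 to 2124 CPM), 10 of 12 microglia markers (147 to 186 against 177 to 218 CPM), 9 of 12 endothelial markers (229.5 to 265 against 265 to 279 CPM) and 9 of 10 tested mural cell and fibroblast markers (118 to 221 against 153 to 224 CPM). The median change was largest for the last of these lists, at 0.30 on the log2 scale. Red cell markers had lower values in 5 of 5 tested genes, with 388 to 546 CPM in controls and 399 to 479 CPM in knockouts. Astrocyte markers had 5 higher and 7 lower values. Apart from the 5 hindbrain markers, no marker of these lists was at 0 in all libraries. Choroid plexus markers summed to 158 CPM in control B and to 5.44 to 39.4 CPM in the other libraries. The part of these shifts in the members' values was not tested.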

How the data were processed

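Polyadenylated RNA of 6 cortical hemispheres (3 controls, 3 knockouts) was counted per gene by the authors. The deposited values are whole-number read counts per gene, not normalised, in tables laid out as STAR writes them. The submitters' processing notes list STAR 2.5.4, GRCm38 and mm10. Read length and annotation release: not given in the sources used here. The multi-mapping line of the deposited counts is 0 in every table, and reads assigned to no gene were 22.5 to 27.9% of mapped reads and stayed out of library sizes. The column of the strand with the most reads was used. Symbols, coordinates and exon lengths came from GENCODE M21 (52403 of 52550 identifiers found). The symbol Aldoa had 2 identifiers, of which the one with reads was used.

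Counts were fitted in R 4.3.3 with edgeR 4.0.16 (genes kept by filterByExpr, TMM factors 0.979 to 1.04, robust quasi-likelihood F-test, two-sided, genotype as the only term), with p-values adjusted by Benjamini-Hochberg over all 14913 genes at 0.05. The fits were tested on simulated data. Pair differences are of log2(CPM + 0.1). Shared windows are 50-base runs of a member's coding transcripts that also occur in a GENCODE M21 transcript of a gene elsewhere. Isozyme shares are of counts per kilobase of merged exons. These merged exons are those of all annotated transcripts of a gene, so shares and levels per kilobase depend on that length. Alternatives were DESeq2 1.42.0, RLE scaling, 2 other filters, reads of either strand, each library left out, and the letter as a block. Deviations from the group means correlated at 0.417, 0.342 and 0.211 between same-letter libraries, so the letters were taken to pair libraries. Between other libraries the values were at most -0.031. Deviations cancel out within a group, so negative values there follow from the positive ones and are not separate evidence. No label states the meaning of the letters. No pair of libraries agreed within sampling noise.

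The members, lists and tests were chosen with earlier results of these data known. Values in every library are given for members with an unadjusted p under 0.05, with groups that do not overlap or called with the block, and for the highest member of each role per kilobase; values of other members that are named beside these were chosen after being seen. From each other list the called genes or the 2 with the smallest p are named.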

Additional observations from a re-analysis of the deposited data

How the results depend on the processing

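With n = 3 a group and 8249436 to 10372582 counts a library, the SE of a member's log2 change was 0.0954 (Taldo1) to 0.281 (Slc16a3), which limits the size of change these libraries can show. No member passed the threshold under any of the 13 alternatives run, and the smallest adjusted p (edgeR) was 0.169. Of 403 member values under these alternatives, 375 kept their direction and 28 in 11 members did not. The number of all genes called was 5 in edgeR, 126 with the replicate block, 71 without a filter on low counts, 26 with DESeq2, 25 with DESeq2 and the block, and 1 to 9 with 1 library left out (1 without knockout B, 9 without knockout C). The median member change ran from -0.11 to -0.08 over the left-out libraries. Members with groups that do not overlap numbered 6, and 7 to 10 with 1 library left out (10 without knockout A, where 22% of all genes did not overlap, fewer samples being compared). The change of Eno2 (-0.00 as reported) was 0.00427 with the block, 0.00231 with DESeq2 and the block, 0.00221 with RLE scaling, 2.6e-05 at a mean of at least 1 CPM and 0.000275 without a filter, and that of Pdk1 was 0.00949, 0.00872 and 0.00116 under the first 3 of these. Pfkfb2 was at -0.00903 with DESeq2 and the block. With 1 library left out, signs turned within these ranges of log2 change: Eno2 -0.09 to 0.07, Pdk1 -0.13 to 0.0985, Pfkfb2 -0.33 to 0.28, Ldha -0.28 to 0.0248, Pfkl -0.0587 to 0.15, Pfkp -0.14 to 0.0219, Pgd -0.11 to 0.0975, Pgls -0.24 to 0.0313, Pkm -0.13 to 0.0751, Slc16a1 -0.0993 to 0.0538 and Slc16a7 -0.23 to 0.0354. In percentage points, with 1 library left out, the difference in the share of Pfkl ranged from -0.114 to 1.48, of Pfkm from -0.63 to 2.57 and of Slc16a1 from -0.0304 to 4.23, with the sign turned without knockout B for the first and without control A for the other two. The difference in the Ldhb share (4.94) ranged from 1.58 without knockout C to 6.88, in the Hk2 share (1.05) from 0.268 without knockout B to 1.53, in the Pfkp share (-1.62) from -3.22 without control B to -0.0465 without control A, and in the Eno2 share (-2.03) from -3.06 without control B to -1.04 without knockout C. The cause was not tested. The block changed no member's call.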

Other observations

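Several members had the same letter at the bottom or the top of both genotypes. In 8 of the 31 tested members (25.8%, against 15.5% of all tested genes) the libraries of letter B were the lowest of their genotype in both control and knockout, namely Slc2a3, Hk1, Pfkfb3, Pfkfb4, Eno2, Pkm, Pdk1 and Pgd. Pgd, which makes NADPH, was at 143 and 124 CPM in control and knockout B and at 157 to 167 CPM in the other 4 libraries. Pdk1 was at 20.0 and 21.6 CPM in letter B and at 26.3 to 28.0 CPM in the others. In 6 members (19.4%, against 14.6% of all tested genes) letter B was the highest in both genotypes, namely Hk2, Pfkm, Tpi1, Slc16a1, G6pdx and Tkt. Letter C was the lowest in both genotypes in 5 members (16.1%, against 13.3% of all tested genes), namely Hk2, Tpi1, Ldha, Slc16a7 and Tkt, and the highest in 1, Hk1 (3.23%, against 12.7%). Letter A was the lowest in both in 3 members (9.68%, against 14%) and the highest in both in 5 (16.1%, against 14.1%). The control and knockout values of Slc2a3 and Tpi1 did not overlap. These counts were made after the values were seen, carry no test, and the labels do not say what the letters mark.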
